A study of Mus musculus with 29 samples.

Results

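The effect of a high-fat diet was measured in livers whose hepatocytes lack Maf1. Liver RNA from 4 Maf1hep−/− mice on the high-fat diet (HF-fed) was compared with that from 4 Maf1hep−/− mice on chow (Chow-fed), and these are 8 of the 29 libraries of the series, chosen by the genotype and diet in their labels. Maf1hep−/− mice carry floxed Maf1 alleles and an Alb-Cre transgene, which the Albumin promoter drives in hepatocytes, so that the other cells of the liver keep the gene. Both groups carry the deletion, and diet is what sets them apart by label. The 4 Chow-fed and 5 HF-fed control mice (Ctrl), with floxed alleles and no Cre, are given beside them. All mice were C57BL/6 males of 13 to 14 weeks that had been on their diet from 4 to 5 weeks of age, that were fasted overnight and refed for 4 h before the liver was taken, with 1 library per mouse. In the HF diet 60% of the calories came from lard.

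Diet coincided with the sequencing run in these mice. The HF-fed libraries came from a separate run of 150 cycles on 2 lanes, and the 4 HF-fed Maf1hep−/− libraries held 25978153 to 32319706 counts against 45954428 to 63756727 in the 4 Chow-fed ones. The HF-fed libraries held whole values only, whereas 70.69% to 71.74% of the values were whole in each Chow-fed Maf1hep−/− library. Ctrl libraries were split in the same way. Whether reads that fit more than 1 gene were counted in the same way in both cohorts is not given in the sources used here. Diet, sequencing run, depth and any difference in how the reads were counted cannot be told apart in any difference given here.

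MAF1 is a repressor of RNA polymerase III (Pol III), the enzyme that makes tRNAs, the 5S rRNA and other short non-coding RNAs. In the liver, feeding and insulin raise fatty acid synthesis through the transcription factor SREBP-1c, which is made from Srebf1, and through ChREBP, which is made from Mlxipl. SREBP-2, made from Srebf2, drives cholesterol synthesis and the uptake of LDL when the sterol content of the endoplasmic reticulum is low. Dietary cholesterol opposes it. A diet rich in lard replaces the carbohydrate from which the liver builds fatty acids, and brings fatty acids that are stored in lipid droplets or burned under control of the nuclear receptor PPARα.

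Maf1 itself was low on both diets. Maf1 (ENSMUSG00000022553, GRCm38 chromosome 15, 76351294-76354380) stood at 3.06, 3.94, 3.35 and 4.56 CPM (counts scaled to library size with TMM) in the Chow-fed Maf1hep−/− mice and at 1.503, 1.96, 1.80 and 1.65 CPM in the HF-fed ones. The groups did not overlap, and the residual level fell by 1.11 ± 0.18 on the log2 scale (adjusted p-value 0.000749). In Ctrl livers it was 18.7 ± 1.97 CPM (SD, n = 4) on chow and 18.1 ± 2.91 (n = 5) on HF. Gm35339, a protein-coding gene annotated on the same strand just downstream (chromosome 15, 76354432-76365201), was present in the Maf1hep−/− mice and nearly absent from Ctrl, at 34.9, 48.5, 53.0 and 51.4 CPM on chow and 56.6, 60.6, 49.6 and 53.4 on HF, a log2(FC) of 0.23 ± 0.13 that did not pass the test (adjusted p-value 0.180). All 8 libraries therefore matched their genotype labels at Maf1, and Gm35339 stood at 0.455 ± 0.330 and 0.229 ± 0.182 CPM in Chow-fed and HF-fed Ctrl.

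How a gene's values moved with diet went with how much of its sequence it shares with other genes. For each gene, the share of its 31-base words that also occur in another annotated gene was computed from GENCODE vM21 transcripts. Genes sharing at most 1% of their words had a median log2(FC), HF-fed over Chow-fed, of 0.08 in Maf1hep−/− mice (5289 genes tested), and 17.41% of them were lower and 23.03% higher on HF at an adjusted p-value under 0.05. Those sharing 20% to 50% had a median of −0.23, those sharing 50% to 80% a median of −1.63, and those sharing over 80% a median of −5.58 (447 genes, 92.62% lower). The same medians in Ctrl were 0.05, −0.28, −1.61 and −5.55. Values that were not whole in the Chow-fed libraries made up 0.2456% of the values of the first class and 94.37% of the last. The class sharing 5% to 20% had a median of 0.01 in Maf1hep−/− mice and −0.04 in Ctrl. In Maf1hep−/− mice 23.42% of its genes were lower and 18.84% higher on HF, and 56.24% of its Chow-fed values were not whole. The plot of log2(FC) by sequence sharing shows both genotypes.

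**Figure D1:**
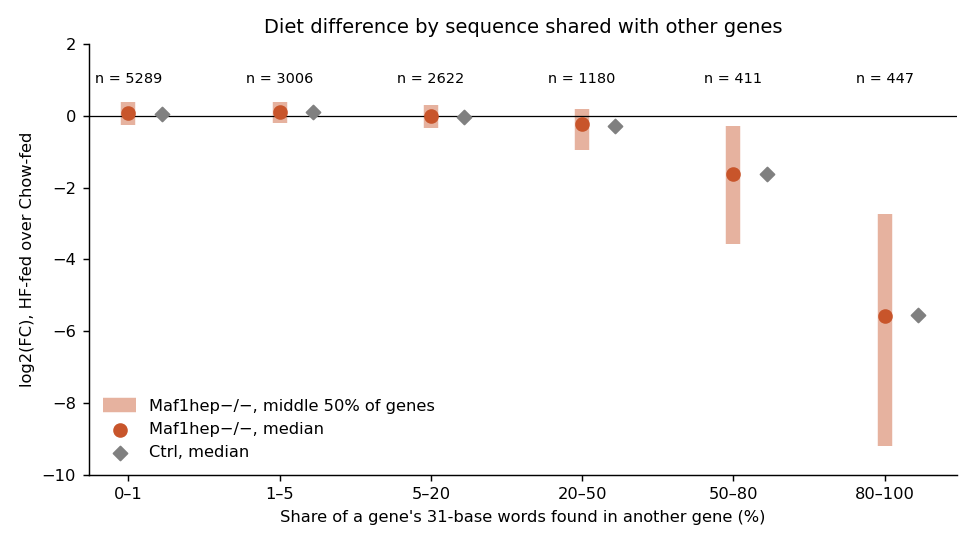
Median log2(FC), HF-fed over Chow-fed, of the genes in 6 classes of sequence sharing (x axis, percent of a gene's 31-base words found in another annotated gene), in Maf1hep−/− livers (circles, with bars for the middle 50% of genes) and Ctrl livers (diamonds). The medians of both genotypes lie near 0 up to 20% sharing and go down to −5.58 and −5.55 above 80%.

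Classes of RNA differed in the same comparison in Maf1hep−/− livers. Of 254 processed pseudogenes, intronless copies of other genes, 231 were lower and 14 higher on HF (median log2(FC) −4.41). Other classes went the other way, with 27 of 32 sense intronic transcripts higher (median 1.53) and 159 of 235 transcripts of the provisional class TEC (median 1.31). Of 26 small nucleolar RNAs 20 were lower, and of 82 cytosolic ribosomal protein genes, whose pseudogene copies are numerous, 62 were lower and 3 higher (median −1.47), against 10 lower and 3 higher of the 24 ribosomal protein genes that share at most 20% of their words (median −0.27). Of the 19 major urinary protein genes (Mup), a family of near-identical pheromone carriers, 16 were lower and 1 higher, and each of the 19 shares over 20% of its words with another gene. Mup1 for example stood at 403, 329, 879 and 1099.5 CPM on chow and 7.55, 34.5, 69.4 and 23.5 on HF. In the 4 HF-fed Maf1hep−/− libraries 167 genes that had counts in the Chow-fed ones were at 0, 25 of them with low sharing, against 8 the other way round. These genes are therefore uncertain between the 2 diets, and counts below are also given for low-sharing genes, the 10925 of 12992 genes in the table that share at most 20% of their words, a limit that was set after the data were seen. The limit keeps the class that shares 5% to 20%, so low-sharing genes are not free of this uncertainty. Genes named below that share more are marked as such.

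GC content moved with the diet difference as well. Over the 10923 low-sharing genes tested in Maf1hep−/− mice, the median log2(FC) was 0.21 in the fifth with the lowest GC content and −0.39 in the fifth with the highest, with 0.20 and −0.47 in Ctrl, and Spearman's rho of log2(FC) with GC content was −0.4148 across genes, which are not independent replicates. Fits with offsets for GC content and transcript length were therefore run as an alternative. They ended the calls of 16 of the 103 named genes that had passed, besides that of Col4a2, whose sign turned. Where such a gene is described below, this is given beside it.

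Diet, and the run with it, separated the 8 livers on the first axis of variation. The first principal component of log2(CPM) held 87.42% of the variance over all genes and 68.88% over low-sharing genes, and on it the 4 Chow-fed mice lay on one side and the 4 HF-fed mice on the other. HF-fed mice differed more among themselves than Chow-fed mice did: the median SD of log2(CPM) over low-sharing genes was 0.183 on HF and 0.1348 on chow. On the second component of low-sharing genes HF-fed mice 1 and 3 lay at 20.7 and 18.8, and mice 2 and 4 at −31.59 and −8.247.

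A large part of the measured mRNAs passed the test. With edgeR's quasi-likelihood test and Benjamini-Hochberg adjustment over all 12964 genes tested, 2652 mRNAs (20.5%) were higher and 3204 (24.7%) lower on HF at an adjusted p-value under 0.05. Adjusted p-values below come from this test, over the genes tested in each fit, unless another method is named. At a log2(FC) beyond 1 in addition, 632 (4.88%) were higher and 1403 (10.8%) lower. Over low-sharing genes, scaled and tested anew, 1937 (17.7%) were higher and 2331 (21.3%) lower, and at both cutoffs 492 (4.50%) were higher and 561 (5.14%) lower, numbers that were close to each other, unlike those over all genes. Ctrl livers gave 2925 (22.6%) higher and 3627 (28.0%) lower of all genes, and 2266 (20.7%) and 2674 (24.5%) of low-sharing genes. Scaling decides the split between the directions: with library totals in place of TMM the median log2(FC) of all genes was 0.3454 instead of 0.02, and 76.38% of the called mRNAs were higher instead of 45.29%. The counts of members given below are to be read against these shares.

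The diet effect was next compared between genotypes. No mRNA of 12970 (0%) passed the adjusted p-value in edgeR's test of the interaction of genotype and diet, whose smallest adjusted p-value was 0.4057, and 599 (4.618%) had an unadjusted p-value under 0.05. limma-voom called none either, and DESeq2 called 11, among them Maf1. Where a gene below passed in Maf1hep−/− mice and not in Ctrl, the difference between genotypes was thus not shown. The unadjusted interaction p-value is given for some such genes.

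The clearest group was cholesterol synthesis. Of 24 measured genes of cholesterol synthesis and LDL uptake, 19 were lower on HF in Maf1hep−/− livers and none was higher (median log2(FC) −1.39), and of the 21 with low sharing 17 were lower, against 21.3% of all low-sharing genes. Their median stayed below 0 under each scaling tried (−1.08 with library totals). In Ctrl 21 of 24 were lower. The summed level of the low-sharing members was 3152 to 7552 CPM in the Chow-fed mice and 1804 to 3368 CPM in the HF-fed mice, so the sums overlapped.

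Srebf2 (ENSMUSG00000022463, chromosome 15, 82147181-82205379), which encodes SREBP-2, stood at 31.7, 45.0, 42.0 and 40.00 CPM on chow and 20.5, 21.5, 22.1 and 24.3 on HF. No HF-fed mouse reached the lowest Chow-fed mouse (log2(FC) −0.84 ± 0.12, adjusted p-value 0.000255). A target of SREBP-2 was lower as well. Insig1, which retains the SREBPs in the endoplasmic reticulum had 344, 486, 876 and 553 CPM on chow and 82.3, 189, 121 and 267 on HF (log2(FC) −1.77 ± 0.38, adjusted p-value 0.00383).

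Among the enzymes, lower levels were measured from the early to the late steps. Hmgcs1, HMG-CoA synthase, had 453, 911, 1771 and 1279.5 CPM on chow and 353, 215, 389 and 654 on HF, with overlap (log2(FC) −1.46 ± 0.42, adjusted p-value 0.0178). Mvd, mevalonate diphosphate decarboxylase, stood at 27.3, 51.4, 73.0 and 55.9 CPM on chow and 3.95, 7.39, 8.59 and 22.0 on HF, with the highest of the HF-fed values in mouse 4 (log2(FC) −2.30 ± 0.48, adjusted p-value 0.00333, and −2.96 without that mouse). Sqle, squalene epoxidase, the first oxygen-dependent step, had 102, 139.6, 255.5 and 189 CPM on chow and 25.9, 29.3, 51.9 and 76.3 on HF (log2(FC) −1.90 ± 0.38). HF-fed mouse 4 was the highest of its group for Mvd, Sqle and Insig1, and Chow-fed mouse 1 the lowest of its group for each of them.

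Several later enzymes fell with smaller errors. Tm7sf2, a sterol reductase, stood at 64.1, 63.1, 80.4 and 70.7 CPM on chow and 27.5, 15.2, 24.9 and 27.1 on HF (log2(FC) −1.55 ± 0.18, adjusted p-value 6.86e-05). Hsd17b7, a sterol ketoreductase, had 94.2, 131, 187 and 128 CPM and 58.0, 41.6, 66.9 and 74.6 CPM (log2(FC) −1.16 ± 0.22). Members that did not pass included Dhcr7, Sc5d, Ebp and Stard4, with log2(FC) of −0.99, −0.22, −0.20 and −0.06. The largest values belonged to Fdps and Idi1, the enzymes of farnesyl and isopentenyl diphosphate, at −6.04 and −5.41. These share 27.9% and 27.1% of their words with other genes, their HF-fed levels were 2.97, 3.58, 1.60 and 7.53 and 5.10, 6.88, 8.96 and 16.5 CPM, and they are uncertain for that reason. The plot of the cholesterol genes by mouse marks them.

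**Figure D2:**
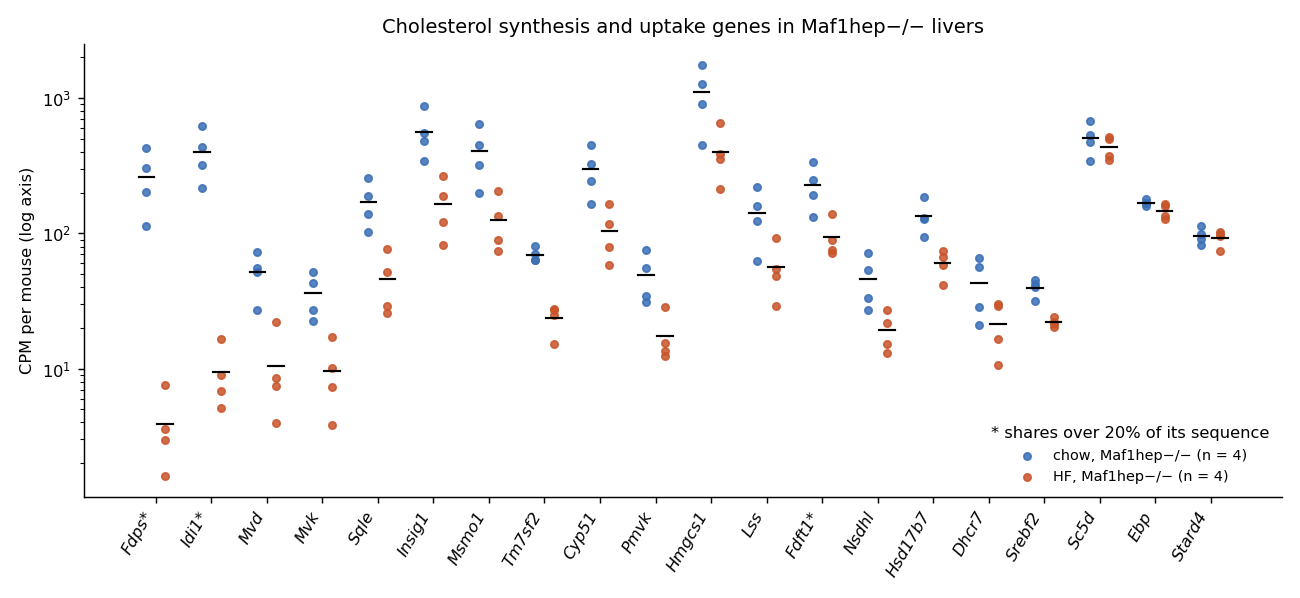
Level of 20 genes of the cholesterol list in each Maf1hep−/− mouse (CPM after TMM scaling, log axis), with 4 Chow-fed and 4 HF-fed mice as points and short lines at the group means. An asterisk marks genes that share over 20% of their words with another gene. For Srebf2, Mvd, Sqle and Tm7sf2 every HF-fed point lies below every Chow-fed point, and the points of Hmgcs1 overlap.

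SREBP-2 binds sterol regulatory elements in promoters together with the factor NF-Y, which binds CCAAT. Promoter windows from RefSeq (250 bases before to 50 after the gene start, GRCm38.p6) were found for 16 of the 24 genes, and 4 are printed, for Hmgcs1, Insig1 and Mvd, described above, and for Mvk, mevalonate kinase (log2(FC) −1.91 ± 0.42), to show where these letters lie. They are written 5′ to 3′ on the gene's strand, with matches in capitals on either strand to CCAAT, which reads ATTGG on the opposite strand, to the E-box CACGTG, or to TCACNCCAC, a common form of the sterol regulatory element.
Hmgcs1 (chr13:119690101-119690400, plus strand): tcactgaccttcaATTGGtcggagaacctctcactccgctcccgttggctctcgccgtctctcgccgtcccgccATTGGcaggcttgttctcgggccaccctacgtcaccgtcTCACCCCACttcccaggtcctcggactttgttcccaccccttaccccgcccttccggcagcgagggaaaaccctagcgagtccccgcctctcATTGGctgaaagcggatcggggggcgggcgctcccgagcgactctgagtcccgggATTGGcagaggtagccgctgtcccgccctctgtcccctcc
Insig1 (chr5:28071162-28071461, plus strand): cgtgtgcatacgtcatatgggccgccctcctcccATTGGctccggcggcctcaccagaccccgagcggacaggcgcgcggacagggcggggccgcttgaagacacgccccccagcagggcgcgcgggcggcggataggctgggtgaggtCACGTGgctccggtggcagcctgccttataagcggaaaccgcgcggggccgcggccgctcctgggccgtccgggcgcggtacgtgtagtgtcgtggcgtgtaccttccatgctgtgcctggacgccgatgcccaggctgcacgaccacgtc
Mvd (chr8:122443373-122443672, minus strand): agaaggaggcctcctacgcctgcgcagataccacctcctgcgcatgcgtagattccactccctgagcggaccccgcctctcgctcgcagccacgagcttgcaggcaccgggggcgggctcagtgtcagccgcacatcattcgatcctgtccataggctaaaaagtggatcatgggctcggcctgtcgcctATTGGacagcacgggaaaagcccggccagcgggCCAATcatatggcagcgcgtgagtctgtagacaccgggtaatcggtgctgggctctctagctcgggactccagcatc
Mvk (chr5:114444019-114444318, plus strand): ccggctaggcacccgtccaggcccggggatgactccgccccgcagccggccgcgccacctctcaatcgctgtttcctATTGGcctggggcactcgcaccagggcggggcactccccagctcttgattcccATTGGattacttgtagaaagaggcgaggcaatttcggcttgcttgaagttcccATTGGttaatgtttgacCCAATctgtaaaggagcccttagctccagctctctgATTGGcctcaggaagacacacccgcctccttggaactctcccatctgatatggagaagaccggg
CCAAT was found in at least 1 window of each of the 16 genes, some of which have more than 1 window, against 41.1% of the 27025 genes with a window. CACGTG was found for 4 of 16 genes (8.09% of all genes), and TCACNCCAC in 1 of 16 (1.44%), which is Hmgcs1. A match is a description of the sequence, and the windows without one were searched for these letters alone.

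Fatty acid synthesis was lower in part. Of 20 measured genes of fatty acid and triglyceride synthesis, 8 were lower in Maf1hep−/− livers and none was higher (median log2(FC) −0.50, below 0 under each scaling tried), and 14 were lower in Ctrl. Fasn (ENSMUSG00000025153, chromosome 11, 120805846-120824547), the fatty acid synthase, stood at 465, 515, 1194 and 708 CPM on chow and 143, 219, 153 and 299 on HF. Chow-fed mouse 3 had the highest level and no HF-fed mouse reached the lowest Chow-fed one (log2(FC) −1.82 ± 0.33, adjusted p-value 0.00161). Elovl6, which elongates its product, had 147, 108, 232 and 162 CPM and 41.0, 63.98, 46.7 and 71.0 CPM (log2(FC) −1.54 ± 0.24, adjusted p-value 0.000664). Acaca, acetyl-CoA carboxylase 1, fell as well (log2(FC) −1.03), but shares 33.5% of its words. Slc25a1, the citrate carrier of mitochondria, and Acacb, acetyl-CoA carboxylase 2, had log2(FC) of −0.78 and −0.82, and both calls were lost with GC and length offsets (adjusted p-values 0.279 and 0.068).

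The regulators and the desaturase behaved differently. Srebf1 stood at 112, 96.8, 139.8 and 72.0 CPM on chow and 23.2, 67.2, 70.4 and 72.7 on HF. HF-fed mouse 1 was far below the other 3, and the log2(FC) of −0.85 ± 0.33 missed the threshold (adjusted p-value 0.0572, and 0.0377 without that mouse, with a log2(FC) of −0.58). Srebf1 passed with DESeq2 (adjusted p-value 0.0158) and with limma-voom and 1 RUVr factor (0.0389). It also passed in the fit of low-sharing genes (0.0469) and without Chow-fed mouse 4 (0.0432). With GC and length offsets its log2(FC) was −0.29 (adjusted p-value 0.503). Mlxipl, which encodes ChREBP, did not pass (log2(FC) −0.24 ± 0.17, adjusted p-value 0.264). Scd1, the stearoyl-CoA desaturase that makes oleate, stood at 5011, 4999, 3743 and 1424 CPM on chow and 4175, 885, 1701 and 4535 on HF. Its values spanned nearly the same range on both diets, and it did not pass in Maf1hep−/− livers (log2(FC) −0.43 ± 0.52, adjusted p-value 0.532). In Ctrl it was 3196 ± 1546 CPM on chow and 657 ± 667 on HF (log2(FC) −2.30, adjusted p-value 0.00765), and the interaction had an unadjusted p-value of 0.0495 and an adjusted one of 0.998.

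Genes of fatty acid oxidation gave fewer calls, in the other direction. Of 33 measured members, a list with targets of PPARα, 6 were higher and 1 was lower, and of the 23 with low sharing 4 were higher, a share close to the 17.7% of all low-sharing genes. Cpt1a, the rate-limiting carnitine palmitoyltransferase of mitochondrial import, stood at 490.2, 629, 439 and 530.3 CPM on chow and 1022, 639, 889 and 716 on HF. The HF-fed mice were all above the Chow-fed mice, mice 1 and 3 by the widest margin (log2(FC) 0.64 ± 0.17, adjusted p-value 0.0128). Fgf21, a hormone that the liver secretes, had 2.52, 4.55, 2.82 and 2.81 CPM on chow and 20.3, 12.0, 3.54 and 24.9 on HF. HF-fed mice 1, 2 and 4 lay above the Chow-fed range, while HF-fed mouse 3 lay within the Chow-fed range (log2(FC) 2.26 ± 0.49, adjusted p-value 0.00417). Ppara, the receptor, had 93.3, 119.9, 108 and 105 CPM and 214, 105, 261 and 123 CPM. Mice 1 and 3 were high, and its call (log2(FC) 0.72 ± 0.26, adjusted p-value 0.0460) was lost in the fit of low-sharing genes (0.0663), with limma-voom (0.0751), with the replicate number as a block (0.0961) and without any one of Chow-fed mice 1 to 4 or HF-fed mice 1 and 3 (adjusted p-values 0.0697 to 0.126). The coactivator Ppargc1a and the acyl-CoA thioesterase Acot4 rose by 0.79 and 1.70 on the log2 scale.

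Uptake and storage of fatty acids had members that rose strongly. Fabp4, a fatty acid binding protein of adipocytes and macrophages, stood at 3.89, 3.87, 2.96 and 5.21 CPM on chow and 7.51, 21.5, 9.03 and 21.3 on HF (log2(FC) 1.90 ± 0.35, adjusted p-value 0.00181). Lpl, lipoprotein lipase, had 23.4, 18.2, 17.4 and 15.5 CPM and 30.2, 65.3, 31.3 and 37.1 CPM, with HF-fed mouse 2 highest for both genes (log2(FC) 1.14). Mfsd2a, a transporter of lysophospholipids that carry long unsaturated fatty acids, had 7.03, 10.1, 6.41 and 10.1 CPM and 36.3, 49.6, 22.2 and 25.3 CPM (log2(FC) 1.99 ± 0.26, adjusted p-value 0.000201), with a log2(FC) of 1.73 in Ctrl. None of these 3 genes overlapped between diets. Cd36, a fatty acid translocase, had 32.0, 149, 26.9 and 28.3 CPM on chow and 362, 90.6, 224 and 149 on HF. Chow-fed mouse 2 lay within the HF-fed range, and the call (log2(FC) 1.80 ± 0.62, adjusted p-value 0.0372) was lost with GC and length offsets (0.086) and without Chow-fed mouse 1, 3 or 4 or HF-fed mouse 1 or 3 (0.0655 to 0.0981), while without Chow-fed mouse 2 the log2(FC) was 2.81. Of the 13 uptake genes measured, 4 were higher and 1 lower.

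Fabp4 and Lpl are also 2 of the 3 measured adipocyte markers, with Pparg as the other. The summed level of these 3 genes was 35.44 to 38.46 CPM in the Chow-fed and 62.74 to 97.56 CPM in the HF-fed mice. Adipoq, Lep, Plin1, Cfd and Retn, the defining adipocyte genes of that list, were not in the table, so the part of fat tissue in these differences was not tested. In bulk livers, more cells of a type and more RNA per cell cannot be told apart, here and in every group below.

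Lipid droplet genes split. Of 17 measured, 4 were higher and 3 lower (2 and 4 of 16 with low sharing), and the sign of the list's median (−0.26) turned with library totals (0.06). Plin4, a perilipin that coats droplets, stood at 11.4, 23.8, 7.43 and 13.3 CPM on chow and 53.7, 26.5, 41.9 and 38.0 on HF. All HF-fed mice exceeded the Chow-fed mice (log2(FC) 1.51 ± 0.33, adjusted p-value 0.00428). In Ctrl it stood at 11.6 ± 1.85 CPM on chow and 10.5 ± 4.41 on HF (log2(FC) −0.16, adjusted p-value 0.640). The interaction was 1.65 ± 0.46 on the log2 scale with an unadjusted p-value of 0.00209, which did not pass after adjustment (0.998). Plin2, the main perilipin of hepatocytes, stood at 441, 529, 342 and 428 CPM and 936, 372, 1083 and 691 CPM. HF-fed mouse 2 lay within the Chow-fed range and mice 1 and 3 far above it, and the call (log2(FC) 0.83 ± 0.29, adjusted p-value 0.0388) was lost in the fit of low-sharing genes (0.0532), with limma-voom (0.0658), with the replicate number as a block (0.115) and without any one of 6 mice (Chow-fed 1, 3 and 4 and HF-fed 1, 3 and 4, 0.0554 to 0.111). Plin3 fell by 0.57 on the log2 scale, a call that was lost with library totals (adjusted p-value 0.173).

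**Figure D3:**
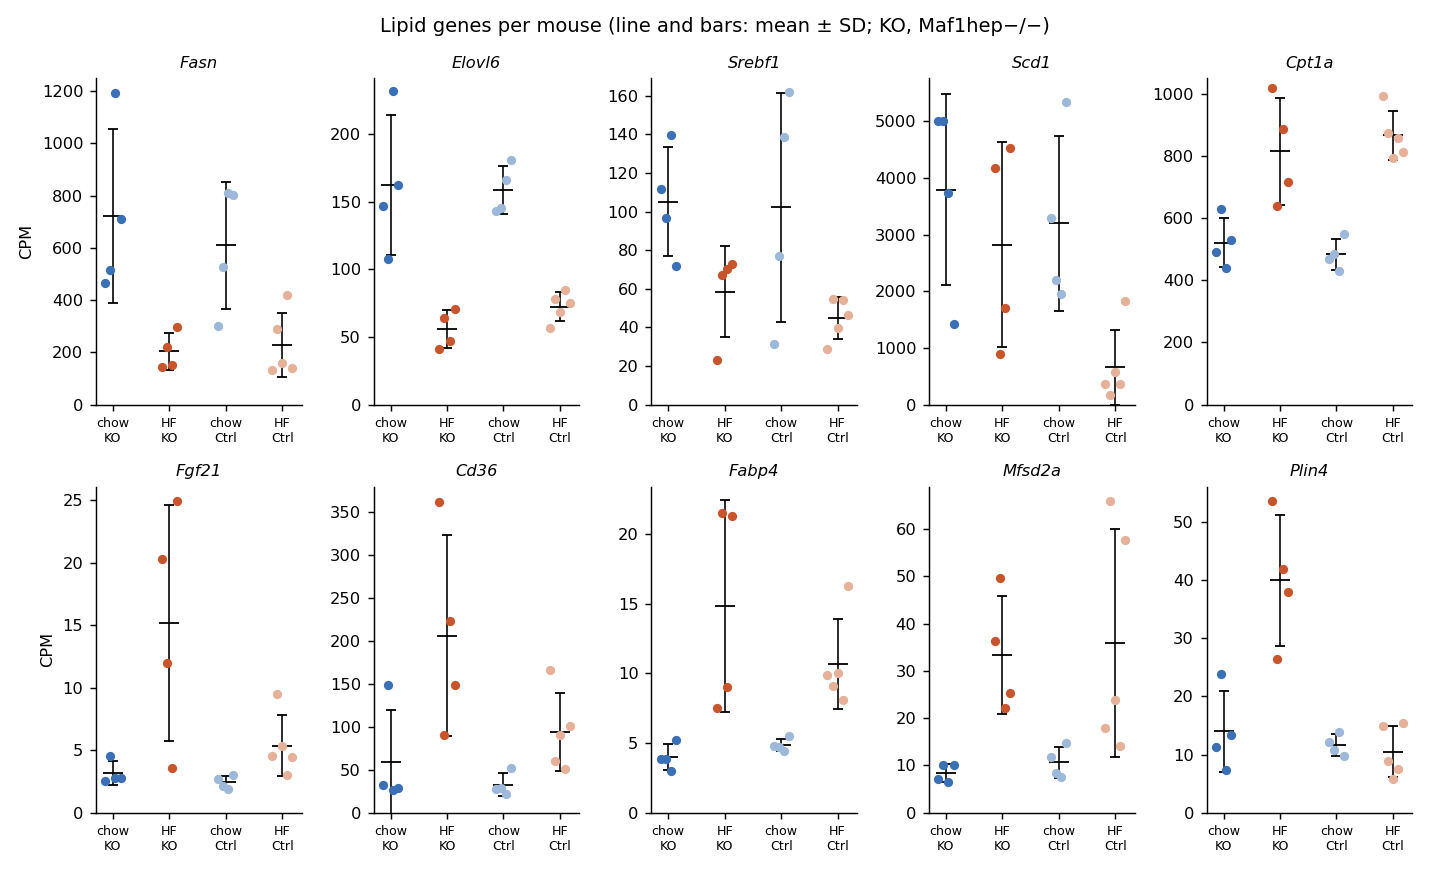
Level of 10 lipid genes in each mouse (points, TMM-scaled CPM, with lines and bars for group means ± SD), for Chow-fed and HF-fed Maf1hep−/− mice (4 and 4) and Chow-fed and HF-fed Ctrl mice (4 and 5). Fasn and Elovl6 are lower on HF in Maf1hep−/− mice without overlap, Cpt1a, Fabp4, Mfsd2a and Plin4 are higher without overlap, and Srebf1, Scd1, Fgf21 and Cd36 overlap.

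Lipoprotein genes and secreted regulators of lipolysis followed. Of 21 apolipoprotein and VLDL assembly genes measured, 6 were lower and 1 was higher (7 and 1 of 19 with low sharing), while the list's median of −0.20 turned to 0.12 with library totals. Apoe, a ligand of lipoprotein receptors, stood at 15870.0, 16322, 14009 and 14838 CPM on chow and 7712, 6111, 9960.1 and 10321 on HF. The groups did not overlap (log2(FC) −0.84 ± 0.19, adjusted p-value 0.00575), but with GC and length offsets the log2(FC) was −0.19 (adjusted p-value 0.42). Apoa2, a protein of HDL, fell by 0.79 on the log2 scale, and Tm6sf2, which helps load lipid onto VLDL, by 0.97. Apob, the structural protein of VLDL, did not pass (log2(FC) 0.41, adjusted p-value 0.0770). Among the inhibitors of lipoprotein lipase, Angptl4, a PPARα target, rose by 1.25, a call that was lost with all 17 hepatocyte-cohort mice in 1 fit (adjusted p-value 0.0514). Angptl8, which insulin and feeding induce, stood at 128, 135, 46.7 and 43.2 CPM on chow and 13.6, 29.1, 24.2 and 45.2 on HF, with HF-fed mouse 4 inside the Chow-fed range (log2(FC) −1.66 ± 0.45, and −0.98 with GC and length offsets, adjusted p-value 0.103).

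Bile acid synthesis gave few calls. Of 22 genes measured 2 were higher and 4 lower, and of 21 with low sharing 1 and 5. Cyp7a1, the rate-limiting enzyme of bile acid synthesis, stood at 299, 413, 300.3 and 224 CPM on chow and 318, 306, 89.1 and 299 on HF, where mouse 3 alone was low (log2(FC) −0.29 ± 0.35, adjusted p-value 0.529). Nr0b2, which encodes SHP, a repressor that bile acids induce through FXR, stood at 36.2, 26.6, 21.3 and 16.5 CPM and 8.79, 9.58, 7.99 and 10.8 CPM. Every HF-fed mouse was below every Chow-fed mouse (log2(FC) −1.43 ± 0.22, adjusted p-value 0.000547). Cyp27a1, the sterol 27-hydroxylase, and Fgfr4, the receptor of the intestinal hormone that represses Cyp7a1, had log2(FC) of −0.58 and −0.73. The call of Cyp27a1 was lost with library totals (adjusted p-value 0.111) and that of Fgfr4 with GC and length offsets (0.295).

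Glucose metabolism and the growth hormone axis gave few calls. Of 24 genes of glucose metabolism and insulin signalling 3 were higher and 2 lower, as were 3 and 2 of the 22 with low sharing. Pck1, the gluconeogenic enzyme, stood at 368, 779, 651 and 1035 CPM and 629, 1969, 611 and 784 CPM, with mouse 2 far above the rest on HF (log2(FC) 0.50 ± 0.41, adjusted p-value 0.354), and G6pc had a log2(FC) of 0.16. Tkt, a transketolase of the pentose phosphate pathway, fell by 1.01 on the log2 scale, and Ppp1r3b, which directs a phosphatase to glycogen, by 0.85, while Foxo1, a transcription factor that insulin restrains, rose by 0.63. Of 14 genes of the growth hormone axis 2 were higher and 3 lower, and none and 3 in the fit of low-sharing genes. Igf1 stood at 506 ± 35.2 CPM on chow and 472 ± 58.5 on HF (SD, n = 4 each), a log2(FC) of −0.10 ± 0.12 (adjusted p-value 0.524). Igfals, whose product holds IGF-1 in the circulation, stood at 168, 146, 157 and 139 CPM on chow and 52.7, 43.9, 78.4 and 61.5 on HF, without overlap (log2(FC) −1.37 ± 0.16, adjusted p-value 0.000102).

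Lists of P450 genes and chaperones lay near the background for lower calls, and neither held a higher one. Of 22 xenobiotic P450 genes and receptors 4 were lower, and 4 of the 14 with low sharing, against 24.7% of all genes and 21.3% of low-sharing genes. Cyp3a11, a main drug-metabolizing P450 of mouse liver, stood at 3544, 2814, 3366 and 2269.7 CPM on chow and 1549, 281, 1047 and 906 on HF (log2(FC) −1.67 ± 0.41, adjusted p-value 0.00848), against 3700.1 ± 1126 and 441 ± 266 CPM in Ctrl. Por, the reductase that supplies P450s with electrons, fell by 0.81 on the log2 scale. Of 20 chaperones of the endoplasmic reticulum, all with low sharing, 4 were lower, again a share near the background. Calr, calreticulin, stood at 1594, 1691, 2029.5 and 1808 CPM and 520.2, 579.5, 1027 and 986 CPM, with mice 1 and 2 the lowest on HF (log2(FC) −1.19 ± 0.23). Hspa5, the chaperone BiP, had 2138, 2994, 2984 and 2448 CPM and 635, 1242, 2025 and 1814 CPM (log2(FC) −0.89, adjusted p-value 0.0404), a call that was lost with library totals (0.127) and without any one of Chow-fed mice 2, 3 and 4 and HF-fed mouse 2 (0.0645 to 0.0863). Manf, a stress-induced secreted factor of the same compartment, fell by 1.21.

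Of 20 genes of the amino acid stress response and its transcription factor ATF4, all with low sharing, 8 were lower and 4 higher, the latter a share near the background of 20.5%, and in Ctrl 10 were lower and 1 higher. Cebpb, a transcription factor whose sequence sharing lies just inside the limit of 20%, fell by 3.99 on the log2 scale. Shmt2, of serine and glycine metabolism, fell by 0.58, a call that was lost with GC and length offsets (adjusted p-value 0.266) and library totals (0.0536). Besides Atf4 the other lower genes were Atf5, Gdf15, Ddit4, Eif4ebp1 and Slc3a2, with log2(FC) of −1.09, −0.87, −0.67, −0.54 and −0.35. Psat1, of serine synthesis, rose by 1.83 on the log2 scale, the mitochondrial Mthfd2 by 1.45, the pseudokinase Trib3 by 1.03 and the mitochondrial Pck2 by 0.81. Atf4 itself stood at 117, 99.5, 122 and 118 CPM on chow and 60.3, 87.9, 50.5 and 85.8 on HF (log2(FC) −0.68 ± 0.17, adjusted p-value 0.00978), but with library totals its log2(FC) was −0.35 (adjusted p-value 0.1). Of 32 genes of the urea cycle and amino acid breakdown 7 were lower and 1 higher. Nags, which makes the activator of the first step of the urea cycle, fell by 0.71, and Hpd, of tyrosine breakdown, by 0.58. Of 67 genes of the respiratory chain and ATP synthase 34 were lower and 6 higher, with 26 lower and 6 higher of the 56 with low sharing, and the median of −0.27 turned to 0.06 with library totals.

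Many extracellular matrix genes were higher in the HF-fed Maf1hep−/− livers. Of 23 measured, 13 were higher and 1 lower on HF (median log2(FC) 0.60), and 11 of the 22 with low sharing were higher, against 17.7% of all low-sharing genes. In Ctrl 7 were higher and 4 lower (median 0.04). The median in Maf1hep−/− mice stayed above 0 under each scaling and with GC and length offsets (0.59 to 0.93). Of the 23 genes 4 had an unadjusted interaction p-value under 0.05 and none an adjusted one under 0.998, so the difference between genotypes in these genes was not shown. The summed level of the low-sharing members was 1732 to 2268 CPM in the Chow-fed and 2444 to 3007 CPM in the HF-fed mice, and these sums did not overlap.

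Col14a1, a collagen associated with fibrils, stood at 63.99, 67.6, 59.8 and 61.3 CPM on chow and 105, 133, 110.0 and 133 on HF (log2(FC) 0.93 ± 0.10, adjusted p-value 6.08e-05). Sparc, a collagen-binding matricellular protein, had 35.2, 33.1, 33.8 and 38.5 CPM and 55.2, 62.0, 51.6 and 64.8 CPM (log2(FC) 0.73 ± 0.10). Tgfbi, a matrix protein that TGF-β induces, had 31.1, 35.3, 33.2 and 38.0 CPM and 49.2, 52.0, 51.8 and 57.1 CPM (log2(FC) 0.61, adjusted p-value 0.000368). For all 3 genes the 4 HF-fed mice lay above the 4 Chow-fed mice with a narrow spread within each diet. The fibrillar collagens Col1a1, Col1a2, Col3a1 and Col5a2 rose by 0.98, 0.64, 0.66 and 1.11 on the log2 scale, with log2(FC) in Ctrl of 0.04, 0.17, −0.10 and 0.47. As for the whole list, a difference between genotypes was not shown for these 4 genes. Lox, which cross-links collagen, rose by 1.38. Col4a2, of basement membranes, was the member that fell, from 44.5, 42.4, 41.3 and 39.5 CPM to 25.8, 29.0, 26.5 and 33.9 CPM (log2(FC) −0.54 ± 0.10, adjusted p-value 0.00178). With GC and length offsets its log2(FC) was 0.17 (adjusted p-value 0.185), and with library totals −0.22 (0.0845).

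Mmp12, the macrophage elastase (ENSMUSG00000049723, chromosome 9, 7344381-7369499), stood at 0.435, 0.221, 0.437 and 0.389 CPM on chow and 2.35, 6.68, 3.88 and 2.15 on HF. It was higher in each of the 4 HF-fed mice than in any Chow-fed mouse (log2(FC) 3.34 ± 0.41, adjusted p-value 0.000127). Ctrl mice had 0.782 ± 0.476 CPM on chow and 1.13 ± 1.31 on HF (log2(FC) 0.50, adjusted p-value 0.604), and the interaction had an unadjusted p-value of 0.00974 and an adjusted one of 0.998. Of the 19 inflammation and chemokine genes measured 5 were higher and none lower, and in the fit of low-sharing genes 4 were higher and 1 was lower. The shares of higher members lay near those of all genes (20.5%) and of low-sharing genes (17.7%). In Ctrl 3 were higher and 3 lower. Vcam1, an adhesion molecule for leukocytes, had 11.5, 10.1, 8.31 and 8.80 CPM on chow and 16.1, 34.3, 25.3 and 30.6 on HF (log2(FC) 1.46), and Tlr4, the receptor of bacterial endotoxin, 4.53, 4.40, 3.86 and 4.26 CPM and 7.97, 10.8, 8.49 and 8.90 CPM (log2(FC) 1.08, and 1.04 in Ctrl). Tnf, Ccl2, Ccl5 and Gpnmb were not in the table.

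**Figure D4:**
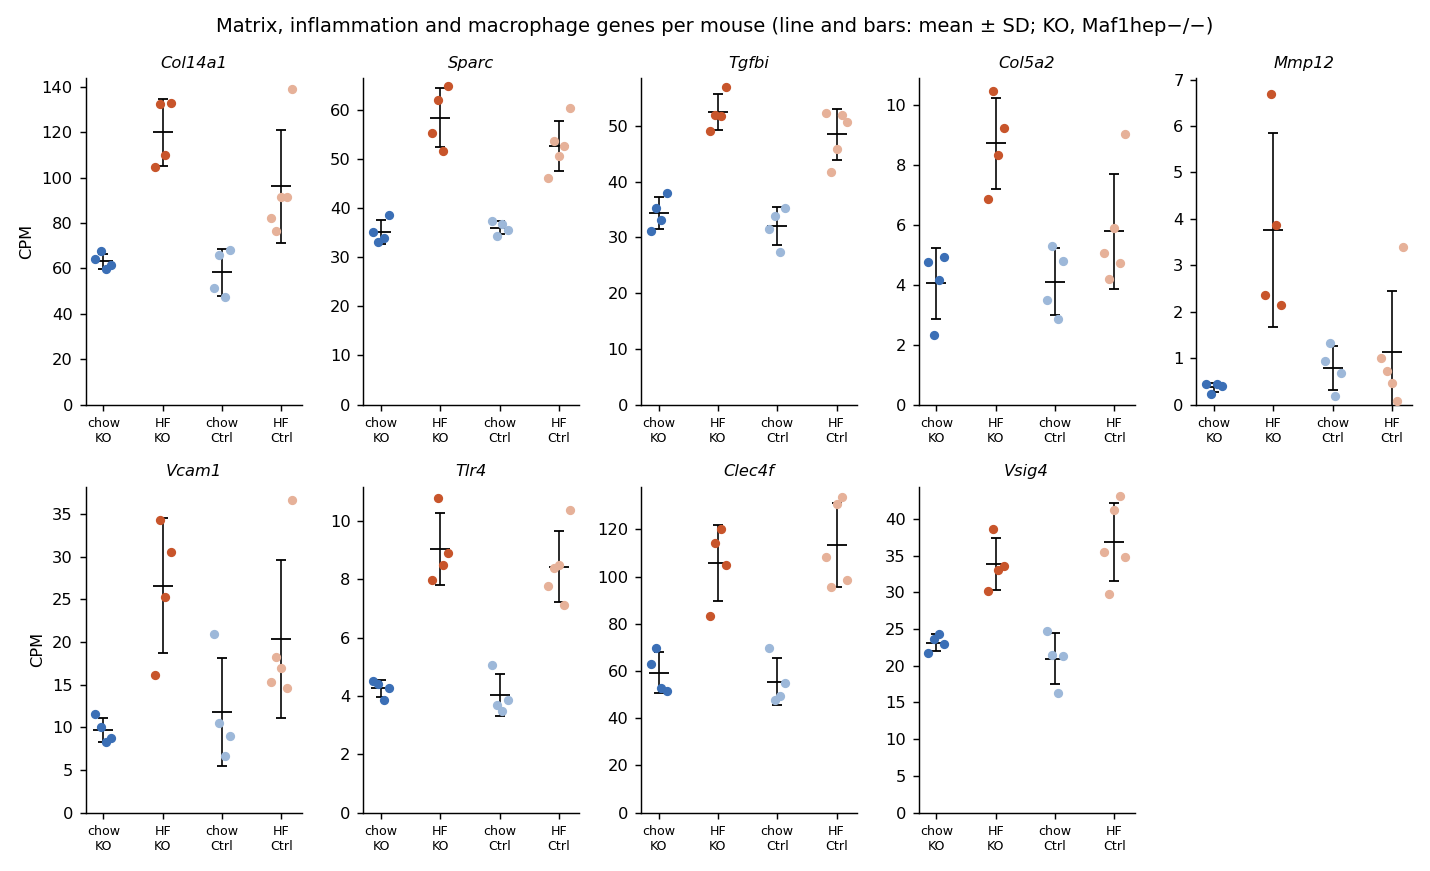
Level of 9 genes of matrix, inflammation and macrophages in each mouse (points, TMM-scaled CPM, with lines and bars for group means ± SD), for Chow-fed and HF-fed Maf1hep−/− mice (4 and 4) and Ctrl mice (4 and 5). In Maf1hep−/− mice each of the 9 genes is higher in every HF-fed mouse than in every Chow-fed mouse, while the points of Mmp12 overlap between diets in Ctrl.

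Markers of non-parenchymal cells moved in the same samples. Of 16 Kupffer cell and macrophage markers 7 were higher and 2 lower (median log2(FC) 0.55), and the summed level of the low-sharing members was 271.8 to 383.7 CPM on chow and 347.2 to 712.9 CPM on HF. Clec4f, a lectin of Kupffer cells, stood at 63.1, 69.6, 52.7 and 51.6 CPM and 83.4, 114, 120.1 and 105 CPM (log2(FC) 0.83, adjusted p-value 0.000939), and Vsig4, a complement receptor of the same cells, rose by 0.55. Adgre1, which encodes F4/80, rose by 1.28 and Cx3cr1, a receptor of monocyte-derived cells, by 1.43, while the complement gene C1qc fell by 0.73. Stellate cell markers gave 6 higher and 1 lower of 12 (sum 587.2 to 650.5 against 596.8 to 808.3 CPM). Acta2, of activated stellate and smooth muscle cells, stood at 2.95, 1.49, 0.704 and 0.995 CPM on chow and 2.32, 6.95, 4.88 and 6.72 on HF (log2(FC) 1.75 ± 0.46), and Lrat, which stores retinol in quiescent stellate cells, fell by 0.80.

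Other lists of non-parenchymal markers held more higher than lower members, except the erythroid list. Of its 5 genes 4 were lower and 0 higher (median log2(FC) −2.61, and 4 lower in Ctrl). Their median share of words found in other genes was 59.4%, and the 1 member with low sharing was not called. Endothelial markers gave 4 higher and 1 lower of 12 (467.6 to 539.2 against 562.6 to 626.4 CPM), cholangiocyte markers 3 higher and 1 lower of 8 (90.4 to 111.9 against 123.3 to 192.4 CPM), and lymphocyte markers 2 higher of 3, with Ptprc, the pan-leukocyte CD45, up by 0.88 and Ighm, the heavy chain of IgM, by 0.81. S100a9, of neutrophils, rose by 2.07 from a mean of 0.502 ± 0.231 CPM, and Cela1, the 1 measured gene of the pancreas list, by 0.99. Most other markers of lymphocytes, neutrophils and pancreas (Cd3e, S100a8 and Prss1 among them) were not in the table. The 14 hepatocyte markers summed to 100800 to 120900 CPM on chow and 95760 to 109900 CPM on HF, with no member higher and 5 lower. The sum of the 10 with low sharing was 75720 to 93300 CPM on chow and 91380 to 104400 CPM on HF, with 1 lower. Alb, albumin, had a log2(FC) of 0.38 (adjusted p-value 0.113). The part of cell makeup in the higher levels of matrix genes and of the inflammation genes named above was not tested.

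The machinery of Pol III, which MAF1 represses, was measured by its subunits and factors. Of 29 genes 2 were higher and 6 lower, 1 and 6 of the 27 with low sharing, below the shares of all genes for higher mRNAs and near them for lower ones. Brf1, a subunit of the initiation factor TFIIIB, stood at 9.76, 10.4, 10.8 and 10.4 CPM on chow and 16.5, 14.7, 15.7 and 14.7 on HF. The groups did not overlap (log2(FC) 0.58 ± 0.09, adjusted p-value 0.000491), and Ctrl gave 0.49. Polr3g and Polr3gl, the 2 alternative forms of one polymerase subunit, were both lower: Polr3g went from 16.4, 14.7, 17.4 and 12.9 CPM to 9.02, 9.01, 9.09 and 10.5 CPM (log2(FC) −0.70 ± 0.12), and Polr3gl from 8.33, 7.05, 8.28 and 8.95 CPM to 5.13, 2.80, 2.94 and 3.93 CPM (log2(FC) −1.14 ± 0.19). Polr1d, shared with Pol I, fell by 0.81, and Tbp, the TATA-binding protein, by 0.57. Snapc2, of the complex for small nuclear RNA genes, had a log2(FC) of −0.66 that did not pass with GC and length offsets (adjusted p-value 0.22). RNAs that Pol III makes were not informative: Rn7s1, Rn7s2, Rmrp and Rpph1, the RNAs of the signal recognition particle and of RNases MRP and P, were near 0 in the HF-fed libraries of both genotypes, and no fold change is given for them.

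The most changed low-sharing mRNAs of at least 5 CPM whose groups did not overlap were then taken, 10 in each direction. Rad51b, a DNA repair gene, was among the higher ones with 0, 0.0184, 0.0243 and 0 CPM on chow and 23.8, 2.43, 7.12 and 3.23 on HF. Mouse 1 held most of that level, and no fold is given for Rad51b because its Chow-fed level rests on 2 counts over the 4 libraries. Hsd17b6, which oxidizes retinol and steroids, went from 14.9, 30.7, 19.1 and 16.2 CPM to 91.8, 76.5, 120.4 and 81.3 CPM (log2(FC) 2.19 ± 0.24), and Osbpl3, an oxysterol-binding protein relative, from 2.48, 7.70, 2.36 and 4.07 CPM to 20.9, 11.2, 24.6 and 20.9 CPM (log2(FC) 2.22). Eif4ebp2, a repressor of cap-dependent translation under mTORC1, had 23.5, 28.5, 17.5 and 18.8 CPM and 121, 105, 93.8 and 66.0 CPM (log2(FC) 2.12, and 2.52 in Ctrl). The lack of overlap in these 3 genes was a condition of their choice and adds no support. The 10 also held Plekhn1, Pnldc1, Dgkh, Tmem267 and Stap1, with log2(FC) of 4.52, 3.82, 2.14, 2.08 and 2.03.

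Among the lower mRNAs, Cyp26a1, the main retinoic acid hydroxylase of liver, stood at 22.9, 22.1, 18.3 and 15.1 CPM on chow and 0.653, 0.337, 0.769 and 1.51 on HF. All 4 HF-fed mice were near 1 CPM (log2(FC) −4.55 ± 0.34, adjusted p-value 2.72e-06). Ctrl mice were at 21.4 ± 8.01 CPM on chow and 7.72 ± 15.7 on HF, with an SD above the mean on HF (log2(FC) −1.49, adjusted p-value 0.285, interaction p-value 0.0549 unadjusted). Several others were also far lower on HF. Wdr74, of ribosome biogenesis, stood at 22.9, 17.8, 20.4 and 19.8 CPM on chow and at 0 in each HF-fed mouse, at least 849-fold lower, taking 3 counts over the 4 HF-fed libraries as the floor, and it was at 0 in all 5 HF-fed Ctrl mice. Atp6v0c, a subunit of the vacuolar proton pump, went from 101, 94.9, 88.3 and 102 CPM to 1.31, 1.65, 1.47 and 1.37 CPM (log2(FC) −6.05, and −6.23 in Ctrl), and Ptms, parathymosin, from 136, 131, 138 and 129 CPM to 9.02, 6.31, 9.36 and 8.12 CPM (log2(FC) −4.02). Tpt1 and Cebpb fell by 4.46 and 3.99, and at 19.9% and 19.6% of shared words they lay just inside the limit of 20%. Usp50, Hcn3, Tonsl and B3gnt8 completed the lower 10.

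Of all genes, the 10 with the largest rise and the 10 with the largest fall under the same rule were mostly not ordinary mRNAs. The higher ones held the pseudogenes Vamp7-ps, Mup-ps13, Cyp2d37-ps and Pisd-ps2 beside Rad51b, Plekhn1 and Pnldc1. The lower ones held Rn7s1, Rn7s2, Rmrp, Rpph1, Gm28661, Gm10925, Gm28437, Gm28438 and mt-Atp8, whose reading frame overlaps that of mt-Atp6, and all of these were at or near 0 on HF in both genotypes. Cyp2b9, a P450 of female-biased expression, stood at 0.471, 0.884, 0.146 and 0 CPM on chow and 165, 0.472, 51.4 and 0.586 on HF, with mice 1 and 3 high and mice 2 and 4 within the Chow-fed range. It shares 26.1% of its words (log2(FC) 7.09 ± 1.79, adjusted p-value 0.00953), its log2(FC) was 5.46 without HF-fed mouse 1 and 7.92 without Chow-fed mouse 2, and limma-voom gave an adjusted p-value of 0.297.

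The 5 smallest interaction p-values were then taken. Besides Maf1 (interaction −1.06 ± 0.21 on the log2 scale, unadjusted p-value 9.38e-05) they were 2410006H16Rik (1.25 ± 0.23, 3.70e-05), Adh6-ps1 (−1.37 ± 0.28, 0.000140), Gm26967 (−1.56 ± 0.32, 0.000147) and Mup10 (−2.07 ± 0.43, 0.000156), the last with 83.2% shared words, and the adjusted p-value of each was at least 0.4057 in edgeR's test. DESeq2 called Maf1, 2410006H16Rik, Adh6-ps1 and Gm26967, as well as Slco1a1 and Mt1, which are described next. Slco1a1, an organic anion transporter, stood at 399.7, 459, 494 and 519 CPM on chow and 479, 381, 567 and 527 on HF in Maf1hep−/− mice (log2(FC) 0.06, adjusted p-value 0.752) and at 413 ± 37.4 and 828 ± 161 CPM in Ctrl (interaction −0.94 ± 0.21, unadjusted p-value 0.000367). Mt1, a metallothionein, had 32.4, 40.9, 27.1 and 18.2 CPM and 6.01, 27.1, 7.89 and 24.2 CPM (log2(FC) −0.86, adjusted p-value 0.146), and in Chow-fed Ctrl its SD exceeded its mean (110.5 ± 179 CPM), against 1.78 ± 0.788 on HF.

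**Figure D5:**
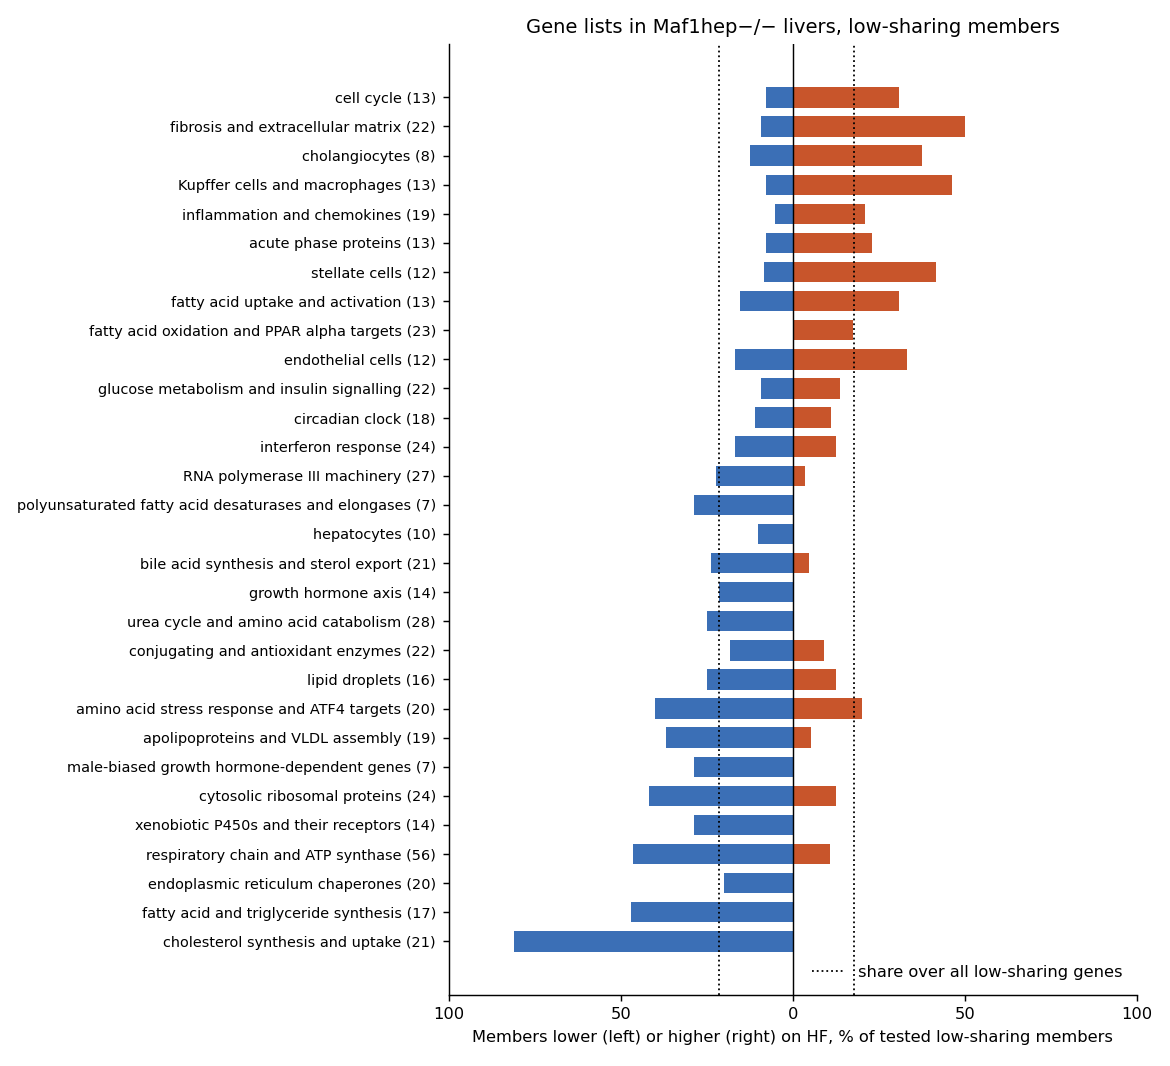
Percent of the low-sharing members that were lower (left) or higher (right) on HF in Maf1hep−/− livers at an adjusted p-value under 0.05, for each gene list with at least 5 low-sharing members tested, with dotted lines at the shares over all low-sharing genes (21.3% lower, 17.7% higher). Cholesterol synthesis stands out on the left with 17 of 21 members, and extracellular matrix, with 11 of 22, lies on the right beside the Kupffer cell and macrophage markers, with 6 of 13.

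The plot of list members by direction also holds the cell cycle, clock, interferon response and acute phase lists. Over all their measured members the last 3 held smaller shares in both directions than all genes did (20.5% higher and 24.7% lower). Of the low-sharing members 2 were higher and 2 lower of 18 clock genes, and 3 and 4 of 24 interferon response genes. Of 13 low-sharing acute phase genes 3 were higher, a share above that of all low-sharing genes (17.7%), and 1 was lower. Of 16 cell cycle genes 7 were higher and 2 lower, and of the 13 with low sharing 4 and 1. Their shares of higher members exceeded those of all genes (20.5%) and of low-sharing genes (17.7%). Mki67, a marker of proliferating cells, stood at 2.52, 4.88, 3.01 and 2.88 CPM on chow and 6.08, 5.20, 6.59 and 12.2 on HF (log2(FC) 1.18), and Top2a, the topoisomerase of dividing cells, rose by 1.65. Of 20 clock genes 2 were higher and 1 lower, namely Nr1d1 and Nr1d2, the REV-ERB repressors, at 0.65 and 0.74, and Per2 at −0.58. Of 27 interferon response genes 4 were higher and 3 lower, with Ifit2 at 0.71 and Rtp4 at −1.04, and of 21 acute phase genes 4 were higher, among them Apcs, serum amyloid P, at 0.70, and 1 was lower.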

How the data were processed

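Liver RNA of 29 male mice was sequenced with 1 library per mouse, and the 8 Maf1hep−/− libraries of the hepatocyte-specific cohorts were compared by diet, with the 9 Ctrl libraries beside them. Groups and replicate numbers came from the sample labels. The authors trimmed the reads with TrimGalore, aligned them to mm10 with STAR and deposited expected counts per gene from RSEM, which are not scaled. How the values of the HF cohort came to be whole is not given in the sources used here. Mice are separate animals, so p-values set each difference against the spread between mice of the same group. That spread was far above counting error (chi-square of 67.31 to 243.8 for each degree of freedom when mice of the same Maf1hep−/− group were paired off). Spread between sequencing runs does not enter the p-values, because the run coincides with diet.

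Rounded counts entered edgeR 4.0.16 under R 4.3.3, with TMM scaling and the quasi-likelihood F test. A gene was tested if any mouse of the fit reached 1 CPM, and p-values were adjusted by Benjamini-Hochberg over every gene tested. limma 3.58.1 and DESeq2 1.42.0 served as alternatives. Standard errors were obtained from the F statistic, as the absolute log2(FC) over its square root. On simulated counts with 100 genes changed at each size, the diet fit found 76% of the changes at a log2 fold of 1 and 96% at 2, with 13 false calls, and the interaction fit 66% and 99%, with 6 false calls. The simulated counts held no difference between groups beyond the planted ones and none between runs. These shares therefore need not hold for the data, where no interaction passed in edgeR's test. GENCODE vM21 (GRCm38) supplied positions, transcript sequences and GC content of 12983 genes, and 6 symbols that stand for more than 1 gene were kept apart by identifier. Principal components used log2(CPM) with a prior count of 2.

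Named genes were Maf1 and Gm35339, the 10 higher and 10 lower mRNAs past both cutoffs with the largest |log2(FC)|, at least 5 CPM in a group and groups that do not overlap (over all genes, and again over low-sharing genes), up to 6 members of each list with the smallest p-values, the 5 smallest interaction p-values and genes the study discusses. Some genes that this rule names are not reported here, and they stay in the counts. Other list members and the promoter windows were chosen after their values were seen. The comparison, the lists and the rule were chosen with earlier results of these data known. Marker and pathway lists are described by counts, without a test of their own. Other settings tried were library totals or RLE for scaling, filterByExpr or no filter for low counts, limma-voom with and without 1 RUVr factor, DESeq2, thinned Chow-fed libraries, GC and length offsets, the replicate number as a block, all 17 hepatocyte-cohort mice in 1 fit, low-sharing genes only (chosen after seeing the data), and each mouse left out in turn.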

Additional observations from a re-analysis of the deposited data

Results flagged for a closer look

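In 15 of 236 groups of 4 mice, 1 mouse stood far from the other 3 by the ratio of its gap to the whole range. Chance gives about 1 in 20 such groups, 11.8 of 236. HF-fed Maf1hep−/− mouse 1 was low for Srebf1 (23.16 CPM) and Tpt1 (15.68 CPM). HF-fed mouse 2 was high for Pck1 (1969 CPM). HF-fed mouse 3 was low for Cyp7a1 (89.12 CPM) and stood apart for Ugt2b1 (406.1 CPM). HF-fed mouse 4 stood apart for Polr3g (10.54 CPM) and for Tbp (10.12 CPM). Among the Chow-fed mice, mouse 1 stood apart for Mlxipl (53.09 CPM), Plekhn1 (0.1811 CPM) and Tbp (14.74 CPM). Chow-fed mouse 2 was high for Fgf21 (4.548 CPM), Cd36 (149.2 CPM) and Stap1 (5.008 CPM). Chow-fed mouse 4 stood apart for Abca1 (380.7 CPM) and Ghr (448.5 CPM).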

How the results depend on the processing

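With library totals, 6263 mRNAs were higher and 1937 lower in Maf1hep−/− livers at an adjusted p-value under 0.05, 1259 were higher at both cutoffs, and 1761 in Ctrl. Over low-sharing genes 561 were lower at both cutoffs, and 728 in Ctrl, against 1403 and 1603 over all genes. DESeq2 called 11 interactions. Leaving out each mouse gave 1903 to 2458 higher and 2859 to 3108 lower, 550 to 656 and 1381 to 1462 at both cutoffs, 606 to 768 and 1525 to 1626 in Ctrl, and 0 to 1 interactions (Gm26967, without HF-fed Ctrl mouse 5). Col4a2 turned to a log2(FC) of 0.1712 with GC and length offsets. Of 103 calls among 118 named genes, 86 were kept with these offsets, 89 with library totals and 103 with DESeq2, and 92 of 97 over low-sharing genes. The causes were not tested. Same-numbered mice of the 2 diets did not deviate together (r of −0.0367, −0.1436, −0.1048 and 0.04219), so the numbers were not taken to pair them. With the replicate number as a block, 2204 were higher and 2981 lower, 594 and 1417 at both cutoffs, and 0 interactions were called, and none of the 4 mice correlated best with its own number.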
